A study of Danio rerio with 16 samples.

Results

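The genes described are the lens crystallins of the zebrafish, taken as every gene whose symbol starts with cryaa, cryab, cryba, crybb, crygm, crygn or crygs and that reached at least 10 counts summed over 16 libraries. The tables list 31388 genes, of which 57 carry such a symbol and 56 reached the sum. By subfamily these are 3 alpha, 7 beta A, 6 beta B, 34 gamma M, 2 gamma N and 4 gamma S crystallins. Of the 56 genes, 51 passed the filter on low counts and were tested among 23623 genes. The 5 that did not are cryaba with 26 counts in all, crygm3 with 51, crygm4 with 65, crygm7 with 19 and crygs1 with 13. The gene crygm6, with 2 counts in all, fell short of the sum.

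Crystallins are the soluble proteins that fill the fibre cells of the lens and give it its refractive power. Alpha crystallins are small heat shock proteins that act as chaperones, whereas beta and gamma crystallins share a structural fold and serve mainly as packing proteins. Gamma M crystallins, named for their many methionines, are the abundant gamma class of fish lenses, gamma N stands between the beta and gamma families, and gamma S is the gamma class also found in the mammalian lens.

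RNA came from wildtype embryos. One set received into the yolk, at 2 days post fertilization (dpf), 1 nl of a 5 mg/ml suspension of 700 nm red fluorescent polystyrene particles in polyvinylpyrrolidone (PVP), a second received PVP alone (mock), and the last was not injected (control). Each group is labelled as 10 embryos and was taken 1 or 3 days post injection (dpi), at 3 or 5 dpf. Control and particle groups have 3 libraries (A, B and C) and mock groups 2 (A and B). No source used here says whether the libraries of a group came from separate clutches, so p-values measure the spread between these libraries. The file headers of the particle C libraries at both times read 70 nm where the sample labels give 700 nm, and the headers mark all C libraries as combined and all A and B libraries as merged.

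Libraries held 8679739 to 19840148 counts. Crystallin counts made up 0.762% (mock 1 dpi A) to 2.85% (mock 3 dpi A) of a library. Both extremes lie in mock groups, with control 3 dpi C close to the lower one at 0.765%. Mock 3 dpi A also stood apart in composition: its 100 most counted genes held 38.8% of the counts, and its TMM scaling factor was 0.694, against 0.886 in mock 3 dpi B and 0.937 to 1.11 in the other 14 libraries. Levels below are CPM, counts scaled to 1000000 in each TMM-scaled library, with no correction for gene length, so they are compared between groups and not between genes. Log2 differences and p-values come from edgeR's quasi-likelihood test, and a gene is called when its p-value, adjusted over all 23623 genes by the Benjamini-Hochberg method, is under 0.05. In these whole-embryo libraries, fewer lens cells and less RNA per lens cell cannot be told apart.

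Genes of other lens fibre proteins were read beside the crystallins, which does not test where the crystallin counts came from. The lens aquaporins mipa and mipb, the fibre membrane protein lim2.4, the beaded filament protein bfsp2, the galectin-related grifin and the klotho-like lctlb had counts in all 16 libraries, and bfsp1 and gja8b were not matched by symbol. mipa ranged from 19.9 to 90.5 CPM and mipb from 14.7 to 72.5 CPM.

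Gamma M genes held 84.6% to 92.0% of the crystallin counts of a library, beta A and beta B genes together 6.98% to 13.6%, gamma N 0.935% to 1.65%, alpha 0.0442% to 0.12% and gamma S 0.0138% to 0.0514%. Most of the gamma M counts came from 21 genes named crygm2d1 to crygm2d21, all on chromosome 9, which held 82.6% to 90.3% of the crystallin counts. Outside these copies, 10 of the 13 other gamma M genes also lie on chromosome 9. All 3 tested gamma S genes and the beta gene cryba2b lie there too, and in all 35 of 56 members.

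Gamma M counts, summed over 34 genes, were 11393, 18052 and 15028 CPM in control 1 dpi A, B and C and 6170 and 10989 CPM in mock 1 dpi A and B. Particle 1 dpi libraries read 18179, 14823 and 12401 CPM. At 3 dpi the sums were 16656, 18517 and 6510 CPM in controls, 37784 and 17707 CPM in mock and 21611, 14641 and 7926 CPM in particle libraries. Thus both mock libraries lay below all 6 other libraries at 1 dpi, while at 3 dpi mock A lay above all others and mock B fell among them. Group means were 14824 ± 3334 (SD, n = 3), 8580 ± 3408 (n = 2) and 15134 ± 2901 CPM (n = 3) for control, mock and particle at 1 dpi, and 13894 ± 6463 (n = 3), 27745 ± 14197 (n = 2) and 14726 ± 6843 CPM (n = 3) at 3 dpi. The C libraries were the lowest of their group at 3 dpi in both control and particle embryos.

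**Figure D1:**
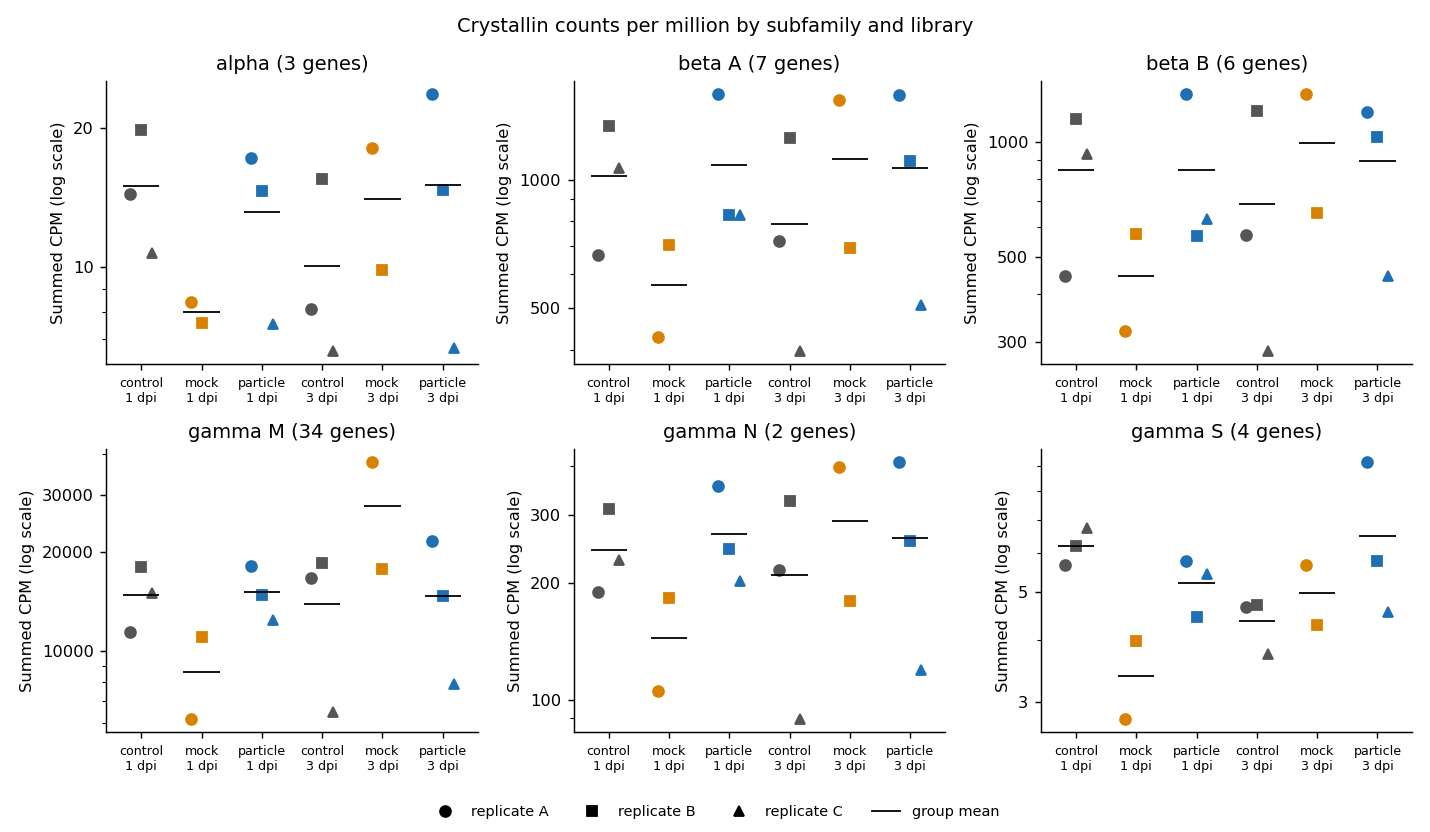
Summed CPM of each crystallin subfamily in each of the 16 libraries, on log axes, by group; circles, squares and triangles are replicates A, B and C and lines are group means. In the gamma M panel the mock mean is lowest at 1 dpi (8580 CPM) and highest at 3 dpi (27745 CPM), and mock 3 dpi A stands above the other libraries at 37784 CPM.

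Shares of the crygm2d counts varied little for the copies with the most counts. crygm2d8 took 25.7% to 26.2% of the crygm2d counts over the 16 libraries, and crygm2d1 took 24.9% to 26.0%, although their own CPM spanned 1562 to 9598 and 1532 to 9451. Against each other, without a shared denominator, crygm2d8 had 100.3 to 103.9 counts per 100 crygm2d1 counts, a coefficient of variation (CV) of 0.996%. Over all 21 copies the CV of the share was 0.496% to 14.1% with a median of 8.07%. The widest were crygm2d11 at 14.1%, with a share of 0.807% to 1.5%, and crygm2d17 at 13.1%. Counts of 11 other crystallins with a mean of at least 1000 counts, divided by the same crygm2d sum, had a CV of 12.4% to 35.0% with a median of 22.0%, so the ranges overlap: crygmxl2, at 12.4%, varied less than those 2 copies. A copy's own counts are part of the sum it is divided by, most of all for crygm2d8 and crygm2d1, and no source used here says how reads shared between copies were counted. Whether the 21 copies are separate measurements cannot be told from these tables, so a count of called copies is given below beside their sum.

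**Figure D2:**
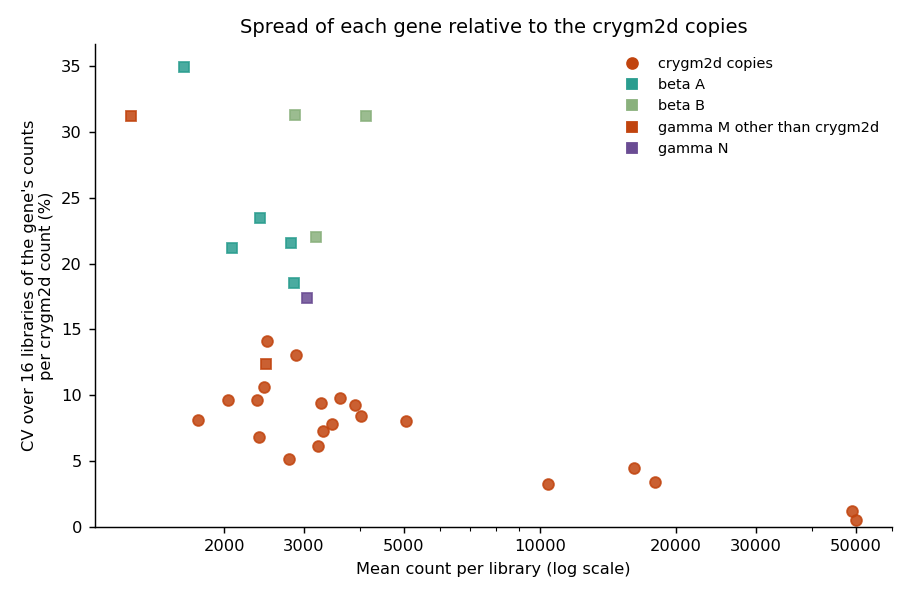
CV over the 16 libraries of each gene's counts divided by the crygm2d sum (vertical axis, percent) against the gene's mean count (horizontal axis, log scale), for the 32 crystallins with a mean of at least 1000 counts. The 21 crygm2d copies (circles) lie at 0.496% to 14.1% and the 11 other genes (squares) at 12.4% to 35.0%.

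Mock against control embryos at 1 dpi asks what injection and PVP did within a day. No crystallin was called by edgeR, DESeq2 or limma-voom, with 0%, 0.247% and 0% of all genes called by these 3 tools. At an unadjusted p under 0.05 edgeR had 9 of 51 crystallins and 2669 of 23623 genes. The median log2 difference of the 51 genes was −0.81, against −0.03 over all genes, and 1 of the 51 differences lay above 0. Both mock libraries lay below all 3 control libraries for 25 of 51 crystallins, which held for 16.7% of all genes. Leaving out mock 1 dpi A gave a median of −0.49 and leaving out mock 1 dpi B gave −1.27. The 51 genes include 21 crygm2d copies, which may not be separate measurements. Summed into 1 row, these copies had a difference of −0.78 (edgeR, adjusted p = 0.50).

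cryaa, the alpha A chaperone gene, read 12.9, 18.7 and 10.2 CPM in the control libraries and 5.52 and 5.94 CPM in the mock libraries at 1 dpi. The 2 groups did not overlap, and the log2 difference was −1.27 (SE 0.558, adjusted p = 0.44). cryabb, one of 2 alpha B genes of the zebrafish, was the single member with a positive difference. It read 1.01, 1.03 and 0.510 CPM in controls and 2.9 and 1.5 CPM in mock libraries, which rests on 10 to 42 counts per library. The mock libraries were the higher ones, with a log2 difference of 1.41 (SE 0.514, adjusted p = 0.44).

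Among beta crystallins at 1 dpi, all 7 beta A genes had differences of −1.07 to −0.48 and all 6 beta B genes of −1.41 to −0.48, none of them called. cryba1a read 5.89, 8.07 and 7.30 CPM in controls and 3.18 and 3.91 CPM in mock libraries, with no overlap (log2 difference −1.0, SE 0.332, adjusted p = 0.44). crybb1l3 read 3.41, 6.10 and 3.16 CPM against 1.31 and 2.11 CPM, again with no overlap (−1.29, SE 0.456, adjusted p = 0.44). The gamma S genes crygs3 and crygs4 had differences of −1.5 and −1.82, on 5 and 3 counts in mock 1 dpi A.

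Particle against mock embryos at 1 dpi compares injection with and without particles. None of the 51 crystallins was called by edgeR, DESeq2 or limma-voom, and these tools called 0%, 0.0169% and 0% of all genes. At an unadjusted p under 0.05 edgeR had 9 crystallins and 538 of 23623 genes. The median log2 difference was 0.89, against 0.01 over all genes, and 48 of 51 differences lay above 0. All 3 particle libraries lay above both mock libraries for 36 crystallins, which held for 13.1% of all genes. The comparison shares its mock libraries with the one against control, so the opposite signs are not separate observations. Without mock 1 dpi A the median was 0.56. The 21 crygm2d copies among the 51, summed into 1 row, had a difference of 0.82 (edgeR, adjusted p = 0.92).

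The gamma S gene crygs4 read 1.65, 1.28 and 0.941 CPM in particle libraries and 0.207 and 0.527 CPM in mock libraries, the latter on 3 and 7 counts (log2 difference 1.80, SE 0.659, adjusted p = 0.92). crygmxl1, a gamma M gene with 3 to 21 counts per library at 1 dpi, read 1.45, 1.41 and 0.830 CPM against 0.207 and 0.451 CPM (1.88, SE 0.552, adjusted p = 0.92). The particle libraries were the higher ones for both genes. cryabb went the other way, at 0.827, 1.48 and 0.498 CPM against 2.9 and 1.5 CPM in mock libraries, with a log2 difference of −1.24 (SE 0.503, adjusted p = 0.92).

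Particle against control embryos at 1 dpi takes in both injection and particles. None of the 51 crystallins was called by edgeR, DESeq2 or limma-voom, which called 0.00423%, 0.0297% and 0% of all genes. None had an unadjusted p under 0.05 by edgeR, where 517 of 23623 genes had. The median difference was 0.03, with the 21 crygm2d copies between −0.03 and 0.12. crygm1, on 0 to 4 counts per library, had the widest of them at −1.64 (SE 1.56). For crygm2d8 the difference was 0.03 with an SE of 0.430. A difference the size of that SE, in either direction, was not detectable at this spread. The smallest detectable difference is larger than the SE and was not estimated.

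**Figure D3:**
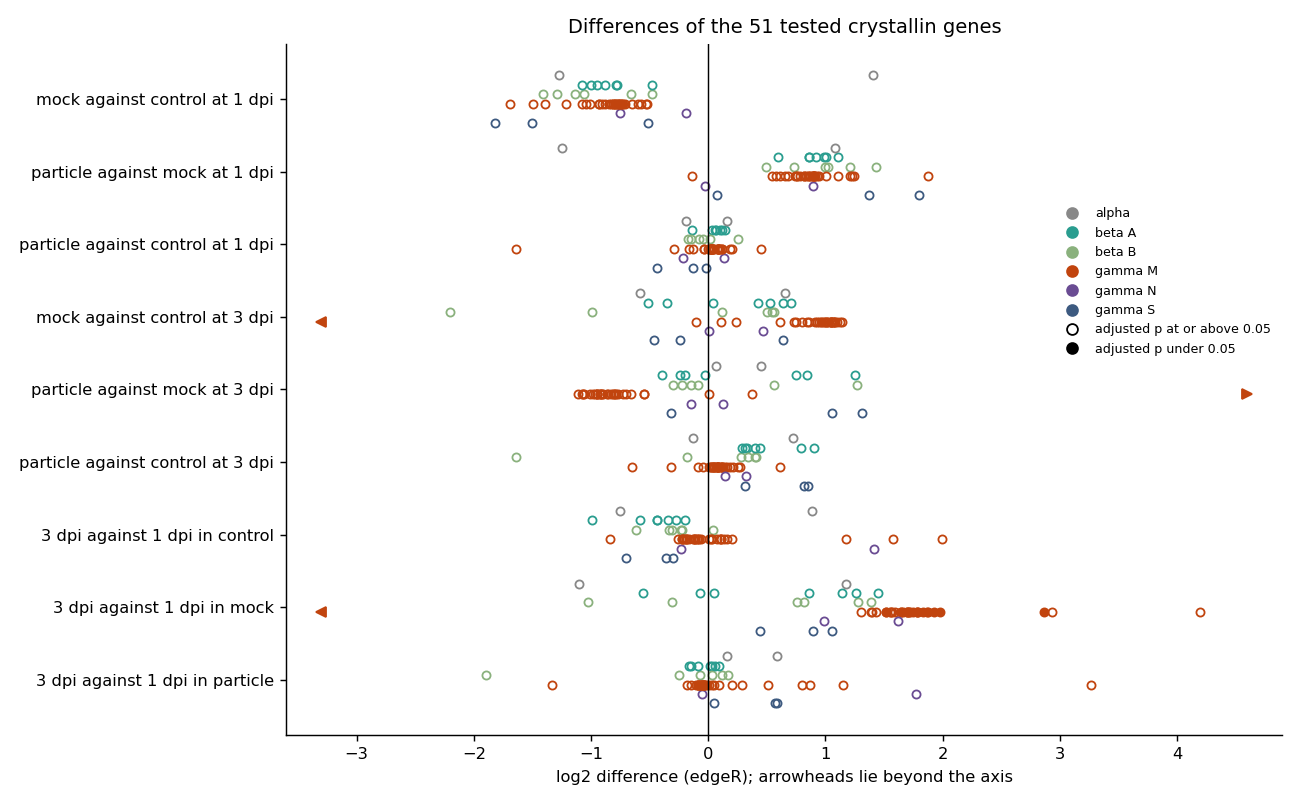
Log2 differences of the 51 tested crystallins (horizontal axis) in 9 comparisons, coloured by subfamily; filled points have an adjusted p under 0.05, and arrowheads mark crygmxl1, whose fitted value lies beyond the axis because both mock libraries at 3 dpi have 0 counts. Mock against control lies mostly left of 0 at 1 dpi (median −0.81) and mostly right of 0 at 3 dpi (median 0.73), and the filled points lie in 3 dpi against 1 dpi within mock apart from crygmxl1.

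At 3 dpi, mock against control embryos gave 1 call by edgeR, where 1.63% of all genes were called and 1.2% were called lower. That gene is crygmxl1, at 0.731, 0.894 and 0.288 CPM (8, 8 and 6 counts) in controls and 0 counts in both mock libraries (adjusted p = 0.0438). Its control mean was 3.59-fold a floor of 3 counts over the mock group. That fold makes no allowance for the spread of the control counts, so it is not a lower bound. The call rests on few counts. DESeq2 gave an adjusted p to only 43 of the 51 crystallins and called none of them, where it called 8.3% of all genes. limma-voom called no crystallin either, but it called 0% of all genes, so that says little about this gene. Of 16 fits that each leave out 1 library, 13 called no crystallin. The shares of all genes called in those fits are not given here, so their count alone does not tell crygmxl1 from other genes. The adjusted p of the full fit lies close to the threshold.

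The remaining members leaned the other way at 3 dpi. The median difference of mock against control was 0.73, against −0.01 over all genes, and 42 of 51 were above 0. Yet both mock libraries exceeded all 3 control libraries for 7 of 51 crystallins, where 18.3% of all genes did so. crygm2d8 read 4261, 4673 and 1649 CPM in controls and 9598 and 4520 CPM in mock, so that mock B lay inside the control range (log2 difference 1.00, SE 0.475, adjusted p = 0.25). crygm2d7 read 293, 297 and 112 CPM in controls and 734 and 297 CPM in mock (1.14, SE 0.452, adjusted p = 0.17), with mock B level with the highest control. Without mock 3 dpi A the median of the 51 genes was 0.07. With library totals in place of TMM factors it was 0.36, where the median of all genes moved to −0.34. Among the controls, C held 6510 CPM of gamma M counts against 16656 and 18517 CPM in A and B. Mock has no C library to set beside it. The 21 crygm2d copies among the 51, summed into 1 row, had a difference of 1.00 (edgeR, adjusted p = 0.25).

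Gamma M and beta genes had different medians in mock against control at 3 dpi, a difference that was not tested. The 21 crygm2d copies had differences of 0.73 to 1.14 against control, while beta A genes had a median of 0.42 (−0.52 to 0.70) and beta B genes of 0.31 (−2.21 to 0.56). For every 100 gamma M counts there were 7.63 and 7.58 beta counts in mock 3 dpi A and B. The same ratio was 7.74, 13.3 and 10.4 in controls, 12.9, 14.6 and 12 in particle libraries, and 9.40 to 16.1 in all 8 libraries at 1 dpi. Both mock values lay below the other 14 libraries, next to control 3 dpi A. Gamma N counts per 100 gamma M counts were 1.05 and 1.02 in mock 3 dpi and 1.30 to 1.95 elsewhere. The ratio is taken within a library and does not depend on scaling.

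**Figure D4:**
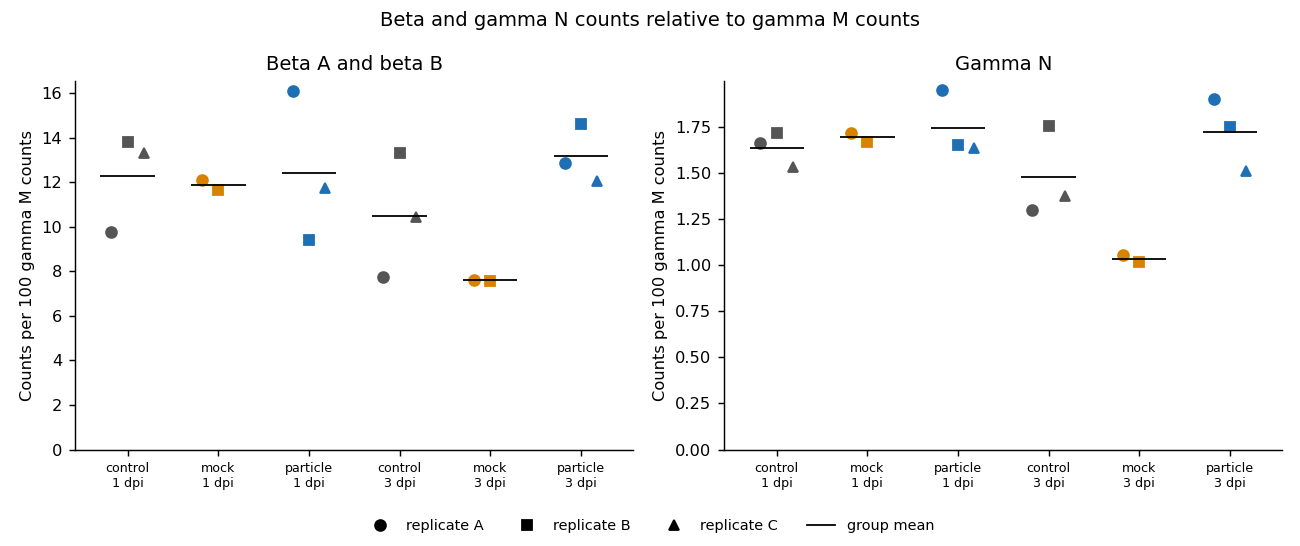
Beta A plus beta B counts (left) and gamma N counts (right) per 100 gamma M counts in each library, by group; circles, squares and triangles are replicates A, B and C and lines are group means. Both mock libraries at 3 dpi are lowest in each panel, at 7.63 and 7.58 beta and 1.05 and 1.02 gamma N counts.

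The beta A gene cryba1l2, singled out after its values were seen, had a wide range of such ratios. Per 100 crygm2d counts it had 0.0782 and 0.101 counts in mock 3 dpi A and B, 0.124, 0.282 and 0.294 in controls and 0.385, 0.435 and 0.301 in particle libraries at 3 dpi. At 1 dpi it had 0.301 to 0.491 in all 8 libraries. Its own level at 3 dpi was 20.3, 50.9 and 18.6 CPM in controls, 29.0 and 17.6 CPM in mock and 81.2, 62.4 and 23.2 CPM in particle libraries. These ranges overlap, and particle against mock had a log2 difference of 1.25 (SE 0.575, adjusted p = 0.18).

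Particle against mock embryos at 3 dpi gave 1 call by edgeR, crygmxl1, where 8.69% of all genes were called and 5.29% were called higher. It read 0.564, 0.516 and 0.375 CPM (8, 6 and 7 counts) in particle libraries against 0 counts in mock (adjusted p = 0.0278). The comparison shares its mock libraries with the one against control, so neither this call nor the opposite sign of the median is a separate observation. The particle mean of crygmxl1 was 2.73-fold the floor of 3 counts. limma-voom also made 1 call, this gene, where it called 6.16% of all genes. DESeq2 made none, where it called 15.8% of all genes, but it gave an adjusted p to only 45 of the 51 crystallins. The call was lost in the fits without particle 3 dpi A, without particle 3 dpi B and without mock 3 dpi A. The shares of all genes called in these fits are not given here. The median difference of the 51 genes was −0.65, against 0.03 over all genes, and without mock 3 dpi A it was −0.01. Among the particle libraries, C held the fewest gamma M counts, at 7926 CPM, and mock has no C library. The 21 crygm2d copies among the 51, summed into 1 row, had a difference of −0.92 (edgeR, adjusted p = 0.23).

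All 3 particle libraries lay above both mock libraries for 3 of 51 crystallins, where 22.7% of all genes did so. crybb1l3 was among the 3, at 4.37, 2.92 and 2.68 CPM in particle and 1.2 and 1.56 CPM in mock libraries (log2 difference 1.27, SE 0.488, adjusted p = 0.11). cryba1a was likewise higher in all particle libraries, at 7.40, 6.45 and 5.89 CPM against 4.79 and 2.47 CPM (0.84, SE 0.340, adjusted p = 0.13). crygm2d7 read 322, 251 and 142 CPM in particle libraries, with mock B at 297 CPM inside that range and mock A above it (−1.11, SE 0.452, adjusted p = 0.13).

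Particle and control embryos at 3 dpi did not separate in any call. edgeR, DESeq2 and limma-voom each called no crystallin and 0%, 0% and 0% of all genes. At an unadjusted p under 0.05 edgeR had 1 crystallin, crybb2, and 363 of 23623 genes. crybb2 read 0.366, 0.894 and 0.528 CPM in controls and 0.0705, 0.258 and 0.214 CPM in particle libraries, which is 4 to 11 counts against 1 to 4 (log2 difference −1.64, SE 0.620, adjusted p = 1.00). The median over 51 genes was 0.12, and the sign turned to −0.23 without control 3 dpi C.

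Time was compared within each treatment, and the mock groups gave nearly all the calls. From 1 to 3 dpi in mock embryos edgeR called 18 crystallins higher and 1 lower, where 23.6% of all genes were called, 11.1% higher and 12.5% lower. All 18 are gamma M genes: 15 of 21 crygm2d copies, crygm2b, crygm2c and crygmxl2. DESeq2 called 29 higher, where it called 27.2% of all genes in both directions, with 3049 of 23149 higher. limma-voom called 14 higher, where it called 21% of all genes in both directions, with 2383 of 23623 higher. The median difference was 1.52, against −0.01 over all genes, and 45 of 51 were above 0. Both mock 3 dpi libraries exceeded both mock 1 dpi libraries for 41 of 51 crystallins, as for 33.5% of all genes.

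crygm2d8 read 1562 and 2804 CPM in mock 1 dpi A and B and 9598 and 4520 CPM in mock 3 dpi A and B (log2 difference 1.69, SE 0.542, adjusted p = 0.037). crygm2d7 had the smallest p, at 97.8 and 164 CPM against 734 and 297 CPM (1.98, SE 0.521, adjusted p = 0.0166). With the 21 copies summed into 1 row the difference was 1.69 (adjusted p = 0.0388), and 5 of the then 31 rows were called. In the fit with the copies apart 23.6% of all genes were called. The later libraries were the higher ones in each case, and mock 3 dpi A was the highest of all 16 libraries for all 21 copies.

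Outside the copies, crygmxl2 rose from 61.4 and 123 to 455 and 221 CPM (1.87, SE 0.556, adjusted p = 0.0281). crygm2b rose from 3.25 and 4.81 to 14.7 and 8.33 CPM (1.52, SE 0.425, adjusted p = 0.0208). crygm2c rose from 0.207 and 0.602 to 4.57 and 1.30 CPM, on 3 and 8 counts at 1 dpi (2.86, SE 0.843, adjusted p = 0.0262). crygmxl1 fell from 3 and 6 counts to 0 and 0 (adjusted p = 0.0239), and its mock 1 dpi mean was 1.85-fold the floor of 3 counts. Its calls at 3 dpi rest on these same 0 counts. No alpha, beta, gamma N or gamma S gene was called, with cryba1b at 1.45 (SE 0.570, adjusted p = 0.081) and cryaa at 1.17 (SE 0.601, adjusted p = 0.17).

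The calls within mock rest on few libraries. Without mock 3 dpi A no crystallin was called by edgeR, 2 had an unadjusted p under 0.05, the median was 0.88 and the copies lay between 0.69 and 1.29, with 7.06% of all genes then called. Without mock 1 dpi A 1 was called, where 7.62% of all genes were, and without mock 1 dpi B 2 were, where 9.52% of all genes were. With library totals in place of TMM factors 6 were called, where 28.2% of all genes were, and the median was 1.03 where that of all genes moved to −0.45. Other genes moved with this contrast in the fit of all libraries, where 23.6% of all genes were called. All 39 tested cytosolic ribosomal protein genes were called higher (median 1.28), summing to 22775 and 25915 CPM at 1 dpi and 40066 and 75627 CPM at 3 dpi. Among 20 skeletal and heart muscle genes 3 were called higher, mylpfa, pvalb1 and pvalb2, and the summed level was 57098 to 61879 CPM at 1 dpi and 91449 to 156164 CPM at 3 dpi. Their part in the crystallin result was not tested.

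In control embryos no crystallin was called between 1 and 3 dpi by edgeR, DESeq2 or limma-voom, where these tools called 1.36%, 6.23% and 1.26% of all genes. At an unadjusted p under 0.05 edgeR had 3 of 51, namely crygn1, crygm2e and crygs2, and 4262 of 23623 genes. The median was −0.18, and it was 0.18 without control 3 dpi C. In particle embryos edgeR and limma-voom called none, where they called 2.03% and 2.16% of all genes. There edgeR had 4 of 51 crystallins and 4375 of 23623 genes at an unadjusted p under 0.05. DESeq2 called 1 gene, crygn1 (adjusted p = 0.0226), where it called 7.07% of all genes. The median was −0.03.

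crygn1, a gamma N gene, had its higher means at 3 dpi in all 3 treatments. It read 1.32, 3.41 and 0.918 CPM in controls at 1 dpi and 5.58, 6.37 and 2.79 CPM at 3 dpi. In mock libraries it went from 1.59 and 1.58 to 6.97 and 2.73 CPM, and in particle libraries from 2.07, 1.28 and 1.33 to 8.46, 4.39 and 3.21 CPM. Mock and particle groups did not overlap between times, and control groups did. Log2 differences by edgeR were 1.42 (SE 0.529, adjusted p = 0.19), 1.62 (SE 0.653, adjusted p = 0.087) and 1.78 (SE 0.522, adjusted p = 0.093), so none was called by that test. crygn2, the other gamma N gene, had differences of −0.23, 0.99 and −0.05.

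The low-count gamma M genes crygm1 and crygm2e also had higher means at 3 dpi. crygm2e read 0.233, 1.03 and 0.408 CPM in controls at 1 dpi and 1.46, 4.14 and 1.01 CPM at 3 dpi, which overlap (log2 difference 2.00, SE 0.787, adjusted p = 0.21). crygm1 read 0.0689, 0.135 and 0 CPM in particle libraries at 1 dpi and 1.76, 0.172 and 0.161 CPM at 3 dpi, on 0 to 2 counts at 1 dpi (3.27, SE 1.35, adjusted p = 0.22). crybb2 had the reverse order in particle embryos, at 0.964, 0.337 and 0.775 CPM and then 0.0705, 0.258 and 0.214 CPM (−1.89, SE 0.598, adjusted p = 0.11).

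**Figure D5:**
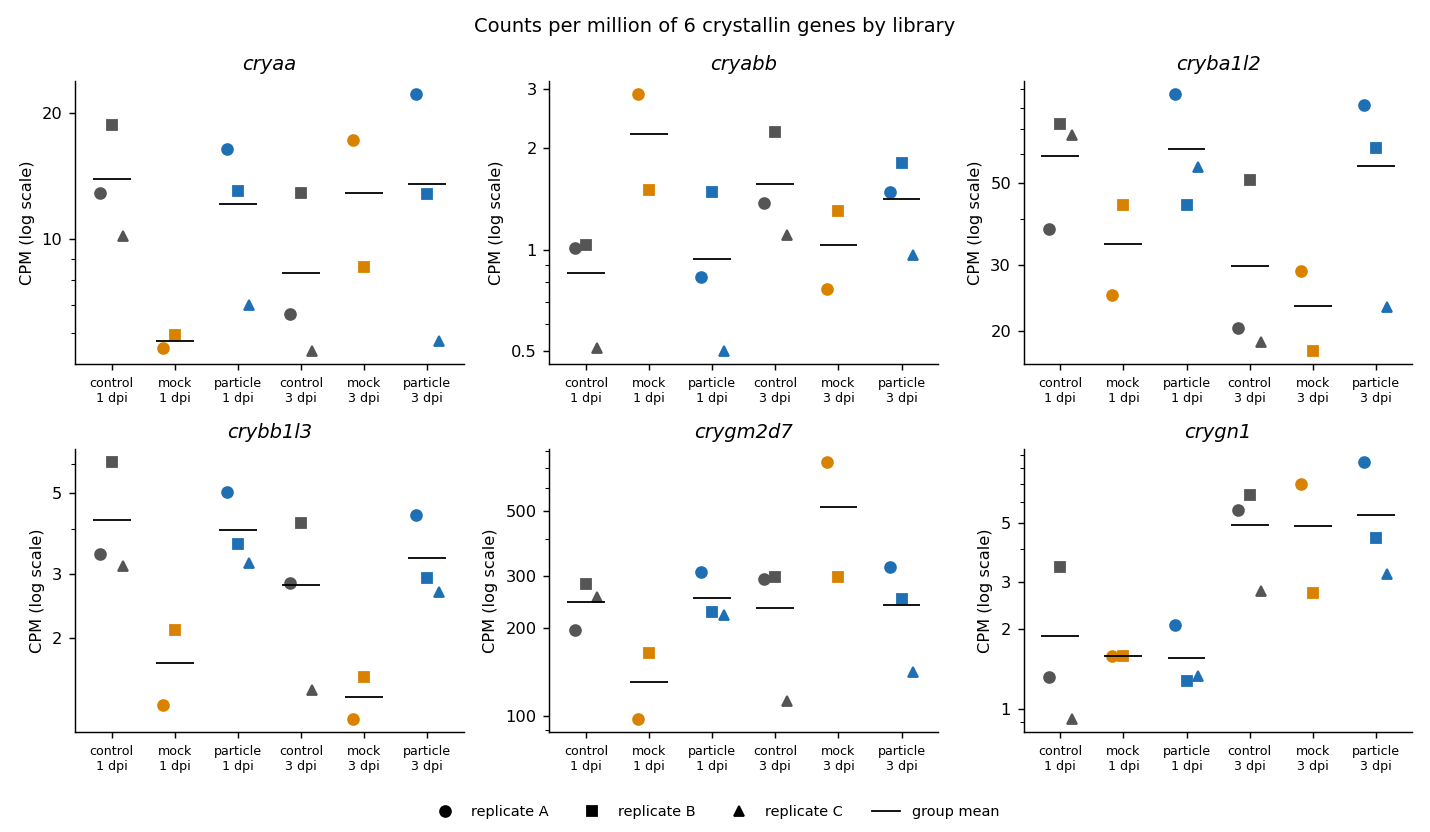
CPM of 6 crystallin genes in each library, on log axes, by group; circles, squares and triangles are replicates A, B and C and lines are group means. crygm2d7 is highest in mock 3 dpi A at 734 CPM, cryabb is highest in mock 1 dpi A at 2.90 CPM, and crygn1 has its higher means at 3 dpi in every treatment.

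Whether the mock difference changed between times was tested as an interaction. For mock against control, no crystallin was called by edgeR or limma-voom (0% and 0% of all genes), 27 of 51 had an unadjusted p under 0.05 by edgeR, as had 5508 of 23623 genes, and the median was 1.61. The smallest p was that of crygm2d18 (2.05, SE 0.646, adjusted p = 0.11). DESeq2 called 7 of the 42 crystallins with an adjusted p, all higher. It called 7.64% of all genes in both directions, with 670 of 19950 higher. For particle against mock, none was called by edgeR or limma-voom (0.00423% and 0% of all genes), 20 had an unadjusted p under 0.05 by edgeR, as had 5656 of 23623 genes, and the median was −1.41. DESeq2 called 5 of the 42 with an adjusted p, all lower. It called 8.62% of all genes in both directions, with 699 of 19950 lower. For particle against control, none was called by edgeR, DESeq2 or limma-voom (0%, 0.00424% and 0% of all genes). None of the 51 had an unadjusted p under 0.05 by edgeR there, where 207 of 23623 genes had. The mock mean was lowest at 1 dpi and highest at 3 dpi for 36 of 51 crystallins, among them all 21 crygm2d copies and 15 of 30 others, and for 24.8% of all genes. Summed into 1 row, the copies had an interaction of 1.79 for mock against control (edgeR, adjusted p = 0.16). For particle against mock the sum had −1.74 (edgeR, adjusted p = 0.16).

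Other lens genes gave a partly different picture. Of 19 tested genes of lens fibre membranes and cytoskeleton, 2 lay above 0 in mock against control at 1 dpi (median −0.64) and 18 above 0 in particle against mock (median 0.69), with none called. In mock embryos from 1 to 3 dpi their median was −0.14, with 7 of the 19 above 0 and none called, while the crystallin median was 1.52. The 19 genes thus went both ways: bfsp2 read 11.3 and 24.1 CPM in mock A and B at 1 dpi and 47.7 and 23.0 CPM at 3 dpi. mipa read 31.2 and 38.5 CPM in mock at 1 dpi and 24.9 and 19.9 CPM at 3 dpi. In particle libraries at 3 dpi it read 68.2, 58.7 and 40.6 CPM, above both mock libraries, and was called higher against mock (log2 difference 1.31, SE 0.308, adjusted p = 0.026). It was the 1 of the 19 called there, where 8.69% of all genes were called. mipb read 57.2, 50.1 and 26.2 CPM against 23.0 and 14.7 CPM there, without being called (1.24, SE 0.479, adjusted p = 0.12). In particle embryos from 1 to 3 dpi, where 2.03% of all genes were called, the fatty acid binding protein gene fabp11b was called lower (−2.46, SE 0.490, adjusted p = 0.0222).

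Lens regulators, 16 tested, had medians of −0.63 in mock against control and 0.42 in particle against mock at 1 dpi, with none called. With the A and B libraries only, an alternative chosen after the data were seen, these medians were −0.28 and 0.17. Summed over 17 genes, their level at 1 dpi was highest in control C (1535 CPM) and particle C (1314 CPM), and mock has no C library. In whole embryos the counts of these regulators need not come from the lens. In mock embryos over time 2 of the 16 were called higher and 2 lower, where 23.6% of all genes were called. The higher ones were the eye transcription factor genes six3b (0.93, SE 0.209, adjusted p = 0.00732) and pax6a (0.91, SE 0.309, adjusted p = 0.0473). prox1a, a factor of fibre differentiation, fell by 1.1 on the log2 scale (SE 0.341, adjusted p = 0.0328), and mafa was also called lower. In particle against mock at 3 dpi, where 8.69% of all genes were called, mafbb was called higher (1.04, SE 0.292, adjusted p = 0.0435) and six3b lower (−0.82, SE 0.187, adjusted p = 0.0238).

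Neighbouring eye tissues and heat shock genes were read on the same scale. Of 38 photoreceptor genes, 30 lay above 0 in mock against control at 1 dpi (median 0.23, none called). Their summed level was 9988, 10335 and 993 CPM in control 1 dpi A, B and C, 9869 and 7497 CPM in mock and 8160, 9135 and 2762 CPM in particle libraries, so both C libraries stood far below the other 6. With the A and B libraries only, an alternative chosen after these sums were seen, 4 of 37 lay above 0 and the median was −0.26. The sign of that difference thus turned with the C libraries. Over time the medians were 0.69, 0.85 and 0.93 in control, mock and particle embryos, and 0.07, 0.77 and 0.47 with the A and B libraries only. Called higher in all libraries were 1, 3 and 2 of the 38, among them pde6h in all 3 treatments, where 1.36%, 23.6% and 2.03% of all genes were called. In mock over time, where 23.6% of all genes were called, the counts in the remaining lists were as follows. Of 16 other retina and cornea genes, 2 were called higher (rx3, glula) and 2 lower (lum, dcn). A list of 23 genes joined small heat shock genes, the family to which alpha crystallins belong, with other heat shock genes and factors. Of these 23, 3 were called higher and 5 lower in mock over time. Higher were hsf2 (2.03, SE 0.293, adjusted p = 0.000926) and hspb11 (1.55, SE 0.382, adjusted p = 0.0114), and hspa5 was lower (−1.14, SE 0.287, adjusted p = 0.0126). The 5 tested genes with crystallin in their name but outside the subfamilies described had none called in any comparison.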

How the data were processed

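Per the labels' protocols, RNA was taken up in TRIZOL and DNase I was applied. The submitters' processing notes name Bowtie2, SAMtools, DESeq and the build GRCz10, without versions. No source used here names the counter, the annotation or the rule for reads that match several genes. The deposited tables, 1 a library, hold whole-number counts per gene. In the deposited files the unit was recorded as estimated counts only because each table ends in a size factor with decimals. Every gene value is a whole number, so rounding changed no gene, and the authors had not normalised these values. The size-factor row and a blank one, 2 per table, were left out.

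The analysis used R 4.3.3 and edgeR 4.0.16 (filterByExpr with minimum count 10 and total 15, TMM, robust quasi-likelihood fit of 6 group means over 16 libraries), with DESeq2 1.42.0 and limma 3.58.1 as alternatives. The edgeR step was tested on simulated data. Groups follow the titles, although the header of particle 1 dpi B names replicate A and a characteristic of control 1 dpi C reads replica 1. The rule for naming genes took cryaa, the cryab genes, the 2 highest-count members of each other subfamily, and per comparison up to 8 called members each way or the 4 with the smallest p. Not every gene it took is described: cryba4, crybb1, crybb1l2 and several called crygm2d copies have no values of their own in the text. crygmxl2, described in mock over time, was a call outside the rule's set there. The counts relative to gamma M and crygm2d, and cryba1l2 in them, were chosen after their values were seen. Members, lists and rules were chosen with earlier results of these data known. Libraries of a group differed by 6.02 to 98.4 in chi-square per degree of freedom, more than repeated reads of the same library would give. That does not show whether they came from separate RNA samples.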

Additional observations from a re-analysis of the deposited data

How the results depend on the processing

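RLE size factors, no filter and a sum of at least 100 counts kept every count of called crystallins within 1.5 times its main value. Mock against control at 3 dpi (1 called) gave 0 with DESeq2, 0 with limma-voom and 0 with same-time libraries only, and 0 to 2 when single libraries were left out. Particle against mock at 3 dpi (1 called) gave 0 with DESeq2, 0 with same-time libraries, 3 with A and B libraries only (24.5% of all genes called), 3 with library totals instead of TMM (12.7%), and 0 to 2 with single libraries left out. Mock from 1 to 3 dpi (19 called) gave 29 with DESeq2, 32 with A and B libraries only (36% of all genes), 5 with the crygm2d copies summed, 6 with library totals, and 0 to 28 with single libraries left out. Particle from 1 to 3 dpi (0 called) gave 1 with DESeq2. DESeq2 gave an adjusted p to 43 of 51 crystallins in mock against control at 3 dpi and to 45 in particle against mock at 3 dpi. A crystallin without one could not be called. The interactions of mock against control and of particle against mock (0 called each) gave 7 and 5 with DESeq2, and 0 to 4 and 0 to 7 with single libraries left out, the highest both without mock 3 dpi B. Library totals instead of TMM were chosen after seeing the data, and shares of all genes come from the same fits. For the fits that leave out 1 library or sum the copies, no share is given in this section. Their counts alone do not tell crystallins from other genes. Except for summing the copies, which leaves fewer rows, the cause was not tested. Where a mock group was left with 1 library, that library is taken to vary as the other groups do.

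The replicate letters were not taken as pairs, since not every same-letter correlation of deviations from group means was over 0.1: it was −0.0946 to 0.745 over 14 pairs (median 0.102). The C libraries of control and particle embryos, whose headers differ from those of A and B, correlated at 0.745 at 1 dpi and 0.569 at 3 dpi, and at −0.678 to −0.0956 with A or B of the other group. Mock groups have no C library. With the letter as a replicate block, called crystallins numbered 2 in particle against mock at 3 dpi (21.9% of all genes called), 29 in mock from 1 to 3 dpi (32%), 1 in particle from 1 to 3 dpi (8.02%) and 3 in the interaction of mock against control (9.34%). Signs under the alternatives were compared only for the genes that the naming rule took in each comparison. No called crystallin among them changed sign in any alternative run that held it. Depth limits crygmxl1, crybb2, crygm1, crygm2c and crygm2e, which have 0 to 42 counts a library. It also limits cryabb with 7 to 42 counts, crygs3 with 5 to 47, crygs4 with 3 to 47 and crybb1l3 with 11 to 73.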
